A study of Mus musculus with 9 samples.

Results

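The Hox genes encode homeodomain transcription factors that sit in 4 clusters, Hoxa, Hoxb, Hoxc and Hoxd, on mouse chromosomes 6, 11, 15 and 2. Members were all protein-coding genes named Hoxa, Hoxb, Hoxc or Hoxd followed by a number in the GENCODE mouse annotation, which gave 39 genes. Of the 33293 gene identifiers measured, 38 were Hox genes, and Hoxd13 was not analysed here. RNA of the aorta had been sequenced in 4 libraries of Apoe knockout mice (Apoe_KO) and in 5 libraries of wild-type C57BL/6J mice (WT). All mice were males of 7 to 8 weeks on a normal chow diet. The labels give neither the origin nor the background strain of the Apoe line. They also do not say which length of aorta was taken, nor whether each library is a separate animal, so that the p-values below measure only the spread between these libraries.

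Along each cluster the genes are numbered by paralogue group. Low numbers are switched on first and furthest towards the head of the embryo, and high numbers later and further towards the tail. Cells of the adult vessel wall keep much of this code, and posterior paralogues are known to be higher in the descending and abdominal aorta than in the arch. The set of Hox genes in an aorta library therefore bears on the segment that was dissected, which is the question asked here of both genotypes.

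The table's values were read as FPKM, which are scaled to gene length and library depth, so levels can be compared between genes. Each library was 17.0 to 19.8 M reads (or fragments) deep, and 0.0253 to 0.0294 FPKM stood for a single read where exons add up to 2 kb. The deleted gene itself stood at 5.64 to 6.55 FPKM in Apoe_KO libraries, against 513 to 643 FPKM in WT libraries. The summed level of 7 markers of the aorta wall (smooth muscle, elastin and endothelium) was 4899 to 6228 FPKM in Apoe_KO libraries and 5226 to 6120 FPKM in WT libraries. Markers of B and T lymphocytes summed to 104.5 FPKM in Apoe_KO library 4 and 100.8 FPKM in WT library 2, against 1.76 to 1.99 FPKM in the other Apoe_KO libraries and 2.03 to 5.29 FPKM in the other WT libraries. The summed Hox level, the posterior share and the called genes whose call changes are also given without those 2 libraries.

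The aortas of both genotypes expressed a broad middle stretch of the Hox code that ended after paralogue group 10. Summed over the clusters, groups 5 to 8 were highest, at 7.71 to 8.64 FPKM on average in Apoe_KO libraries and 10.2 to 12.6 FPKM in WT libraries. Group 4 averaged 5.20 ± 1.18 FPKM in Apoe_KO libraries and 6.88 ± 0.648 FPKM in WT libraries (SD, n = 4 and 5), and groups 9 and 10 were at a similar height, at 5.09 ± 0.840 and 4.60 ± 1.25 FPKM in Apoe_KO and 7.15 ± 0.813 and 6.92 ± 1.17 FPKM in WT. Groups 2 and 3 were lower, with means of 2.10 and 2.56 FPKM in Apoe_KO and 2.88 and 2.80 FPKM in WT. Beyond group 10 the level dropped off. Group 11 averaged 0.449 FPKM in Apoe_KO and 0.849 FPKM in WT, and groups 12 and 13 averaged at most 0.154 FPKM in Apoe_KO and 0.220 FPKM in WT.

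**Figure D1:**
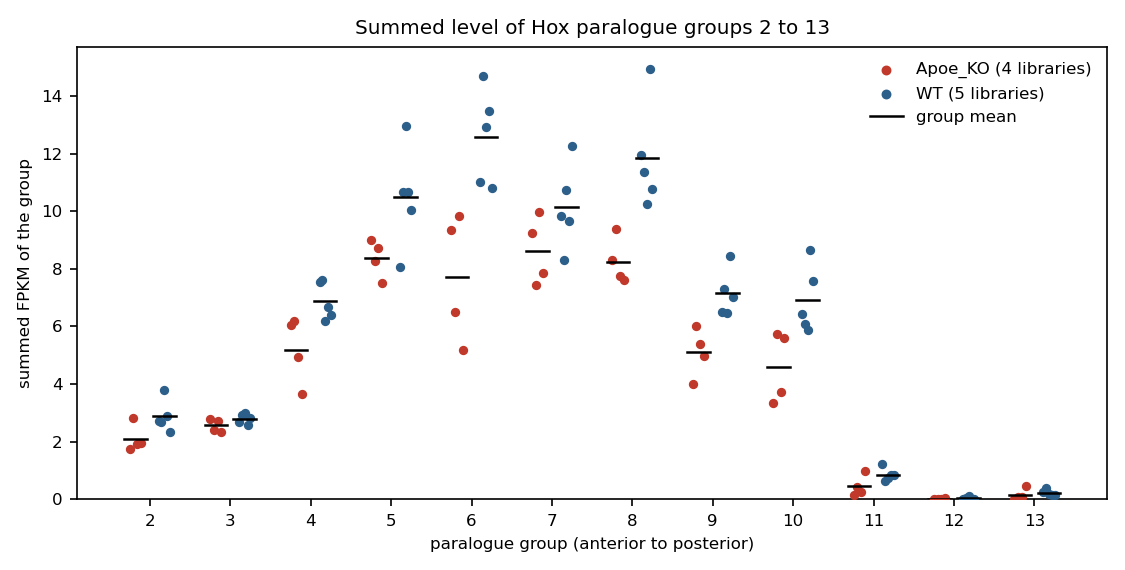
Summed FPKM of the Hox genes of paralogue groups 2 to 13, from anterior to posterior, in each of 4 Apoe_KO libraries and 5 WT libraries; points are libraries and lines are group means. The sums climb to groups 5 to 8 and drop after group 10, and in groups 4, 6, 8, 9 and 10 no Apoe_KO library reaches the lowest WT library.

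Hoxa5, which is needed for the development of the lung and airway, had the highest mean of any Hox gene, 7.34 FPKM over the 9 libraries. It had 7.23, 6.69, 6.90 and 5.95 FPKM in the Apoe_KO libraries, against 5.98, 7.61, 9.84, 7.66 and 8.22 FPKM in the WT libraries, and the groups overlapped. Next came Hoxa7, a gene of thoracic patterning, with 5.84, 4.40, 5.24 and 5.001 FPKM in Apoe_KO and 5.56, 5.54, 6.20, 6.20 and 7.01 FPKM in WT. The following places by mean level were held by Hoxc8 (5.0 FPKM), Hoxc6 (4.16 FPKM), Hoxd8 (4.10 FPKM), Hoxb6 (3.84 FPKM), Hoxb7 (3.82 FPKM) and Hoxc10 (3.39 FPKM). From Hoxc6 to Hoxc10 each gene was closer to the next in this order than the SD between libraries of either genotype. Within a paralogue group the leading cluster changed along the axis. Hoxa2 and Hoxa3 led groups 2 and 3, Hoxb4 led group 4, and Hoxa5 and Hoxa7 led theirs. By mean level Hoxc6, Hoxc8 and Hoxc10 led groups 6, 8 and 10. In Apoe_KO, however, Hoxc6 and Hoxb6 were nearly level, at 3.17 and 3.16 FPKM. So were Hoxc8 and Hoxd8 there, at 3.64 and 3.60 FPKM. Hoxc9 led group 9 in WT, with 2.02 FPKM on average, while Hoxc9, Hoxd9 and Hoxb9 were nearly level in Apoe_KO, at 1.36, 1.40 and 1.38 FPKM.

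Several members were silent or close to it. Hoxb1 and Hoxd1, hindbrain genes of group 1, were listed at 0 in every library. Hoxc12 and Hoxd12 had at most 2 reads in any library, Hoxc13, known for hair formation, at most 3, and Hoxb13, known for the prostate, at most 6. In all, 16 to 20 members reached 1 FPKM in an Apoe_KO library and 21 or 22 in a WT library. Over all genes, 12816 to 13377 reached it in an Apoe_KO library and 13043 to 14194 in a WT library. The Hox reads numbered 2318 to 2658 in Apoe_KO libraries against 3076 to 3870 in WT libraries.

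The whole Hox signal was lower in Apoe_KO aortas. Summed over the members it was 54.6, 55.6, 55.8 and 48.9 FPKM in Apoe_KO libraries, against 68.9, 73.6, 74.1, 79.9 and 72.0 FPKM in WT libraries. Every Apoe_KO library was below every WT library, and the Apoe_KO mean of 53.7 ± 3.26 FPKM was 72.9% of the WT mean of 73.7 ± 3.99 FPKM (SD, n = 4 and 5). In bulk tissue, fewer cells that carry Hox transcripts and less Hox RNA per cell cannot be told apart. Divided by each library's own median over the tested genes, the sum was 9.07 ± 0.848 in Apoe_KO and 11.8 ± 0.938 in WT, or 77.0%, and the groups still did not overlap. Without Apoe_KO library 4 and WT library 2, the lymphocyte-rich pair, the Apoe_KO mean was 18.4 FPKM under that of WT, against 19.97 FPKM with them.

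Of the 36 members read at all, 33 had a lower mean in Apoe_KO, where 62.9% of all 30432 genes read at all did. The 3 with a higher Apoe_KO mean were Hoxb3, Hoxd4 and Hoxd10. Hoxb3 averaged 0.791 FPKM in Apoe_KO and 0.736 FPKM in WT, and 52.9% of its exonic bases lie opposite Hoxb3os. Hoxd4 had 16 reads in all in Apoe_KO and 6 in WT, and shares 52.3% of its exonic bases with neighbours on its own strand. Since the strandedness of the counting is not given, reads of such overlapping genes cannot be assigned with certainty.

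The genotypes were compared gene by gene with limma on log2(FPKM + 1), a scale on which weakly expressed genes show less than their full change. The test covered 13383 genes that reached 1 FPKM in 4 or more libraries, 22 of them Hox genes. At a Benjamini-Hochberg adjusted p under 0.05 over all tested genes, 3 Hox genes fell in Apoe_KO and 0 rose. Among all genes limma called 3.92% lower and 3.43% higher, 7.35% together. Voom on the recovered reads called 2 Hox genes lower and 0 higher, beside 381 lower and 731 higher among all 13367 genes it tested. In limma 8 Hox genes had an unadjusted p under 0.05 and a lower level, where 16.0% of all genes did. All 22 estimates were below 0 and their median was -0.30, beside 63.9% of genes and a median of -0.07 over all tested genes. These figures describe the members that passed the filter and not all members. Among the tested members, 9 reached 1 FPKM in fewer than 4 Apoe_KO libraries and so passed through WT libraries in part, and Hoxc5 passed through WT libraries alone. At a lower filter of 0.1 FPKM in 4 libraries 29 members were tested. The estimate was then below 0 in 27 of these, beside 65.1% of genes, and 2 were called lower, beside 1.96% of genes.

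**Figure D2:**
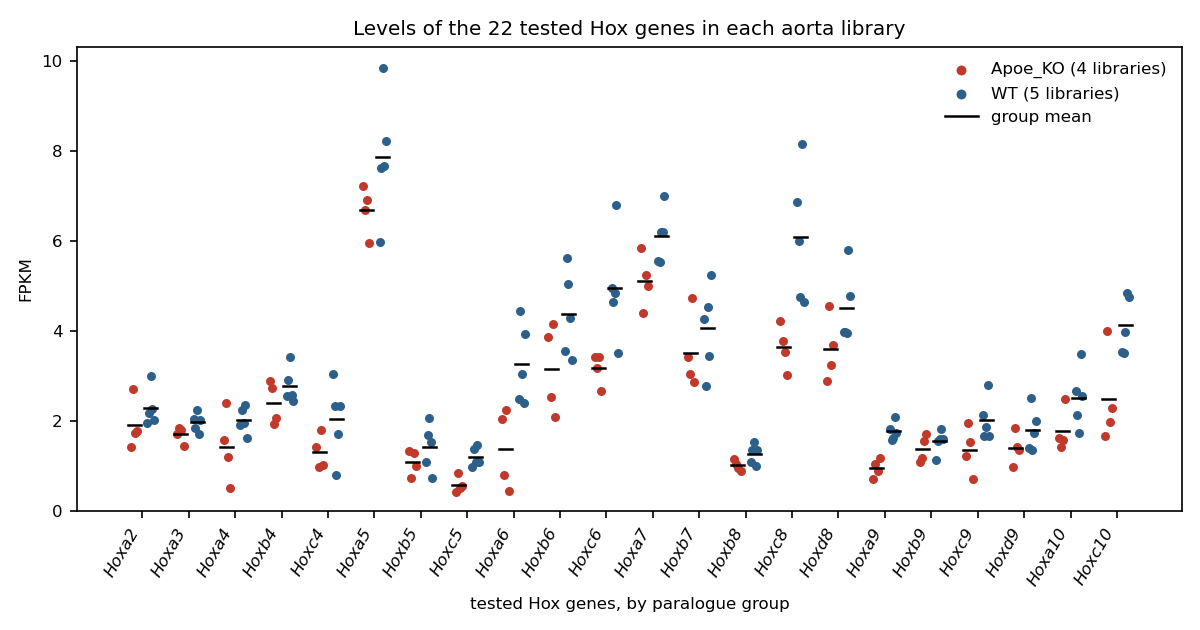
FPKM of the 22 tested Hox genes, ordered by paralogue group, in each of 4 Apoe_KO libraries (left of each pair) and 5 WT libraries; points are libraries and lines are group means. Hoxa5 is highest in both genotypes, and in Hoxc5, Hoxa6, Hoxc6, Hoxc8 and Hoxa9 no Apoe_KO library reaches the lowest WT library.

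The Hoxa cluster contained the most firmly called member, Hoxa9, a posterior gene best known for its part in blood stem cells and leukaemia. It lies on the minus strand of chromosome 6, at 52223100 to 52231089 in GRCm38. Its level was 0.716, 1.05, 0.894 and 1.17 FPKM in the Apoe_KO libraries, against 1.83, 1.58, 1.63, 2.10 and 1.73 FPKM in the WT libraries, from 401 reads in all in Apoe_KO and 927 in WT. The highest Apoe_KO library was below the lowest WT library. Hoxa9 fell by 0.50 on the log2 scale (SE 0.10, limma adjusted p = 0.0194), and the Apoe_KO mean was 54.0% of the WT mean. Leaving out single libraries gave adjusted p-values of 0.024 to 0.0633, and the call was lost without Apoe_KO library 3 (0.0633) and after quantile normalization (0.083). Without both lymphocyte-rich libraries it held, with a log2 difference of -0.58 and adjusted p = 0.0364.

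On the log2 scale Hoxa6 had the widest difference of the tested Hoxa genes, but also the largest SE. It had 2.05, 0.801, 2.25 and 0.436 FPKM in Apoe_KO, against 2.49, 4.44, 3.04, 2.39 and 3.93 FPKM in WT. The groups did not overlap, although Apoe_KO libraries 1 and 3 came close to the lowest WT libraries. The log2 difference was -0.90 (SE 0.258) and did not pass the test (limma adjusted p = 0.0666). Among the tested genes as a whole, 7.48% had every Apoe_KO library below every WT library and 4.9% had the opposite, against 5 and 0 of the tested Hox genes. Hoxa7 and Hoxa5, the genes of highest level, had log2 differences of only -0.22 and -0.19 (limma adjusted p = 0.174 and 0.341). Hoxa2, which specifies the second pharyngeal arch, had 1.41, 2.70, 1.74 and 1.78 FPKM in Apoe_KO, against 1.97, 2.19, 2.99, 2.27 and 2.03 FPKM in WT, with much overlap. Hoxa3, needed for the thymus, the parathyroid and the carotid artery, had 1.72, 1.85, 1.81 and 1.45 FPKM in Apoe_KO, against 2.05, 1.85, 2.25, 1.71 and 2.02 FPKM in WT. The limma adjusted p-values of Hoxa2, Hoxa3, Hoxa4 and Hoxa10 lay between 0.218 and 0.435.

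The Hoxc cluster held the other called members and had the lowest level relative to WT. Its summed level was 12.5, 14.8, 12.8 and 10.4 FPKM in Apoe_KO libraries, against 21.9, 19.7, 17.6, 25.9 and 18.2 FPKM in WT libraries, so that the Apoe_KO mean was 60.9% of the WT mean. The Hoxa cluster stood at 74.96%, also without overlap, whereas Hoxb at 80.5% and Hoxd at 81.6% overlapped between the genotypes. The difference between clusters was not tested. The Hoxc share of the Hox signal was 21.2% to 26.6% in Apoe_KO libraries and 23.7% to 32.5% in WT libraries, which overlapped.

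Hoxc8, which patterns the lower thoracic skeleton and motor neurons of the lower neck, lies on the plus strand of chromosome 15 at 102990607 to 102994111. It shares no exonic base with another annotated gene. Its level was 4.23, 3.79, 3.52 and 3.02 FPKM in Apoe_KO libraries, against 6.86, 6.00, 4.76, 8.16 and 4.65 FPKM in WT libraries, from 778 reads in Apoe_KO and 1614 in WT. The groups did not overlap, and WT libraries 3 and 5 stood closest to Apoe_KO. Hoxc8 fell by 0.59 on the log2 scale (SE 0.15, limma adjusted p = 0.0426), close to the threshold. The call was lost when any one Apoe_KO library was left out (adjusted p = 0.0595, 0.059, 0.11 and 0.0953 without 1, 2, 3 and 4), without WT library 1 (0.0875), 2 (0.0828) or 4 (0.0755), and without both lymphocyte-rich libraries (0.147). It was also lost at 0.1 FPKM (0.0604), with no filter (0.111), after median centring (0.0604) or quantile normalization (0.0774), and in voom on the recovered reads (0.0572).

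Hoxc5 spans chromosome 15 from 102967443 to 103017429 on the plus strand and shares 5.4% of its exonic bases with Hoxc10. Its level was 0.431, 0.837, 0.516 and 0.547 FPKM in Apoe_KO libraries, against 0.983, 1.37, 1.08, 1.47 and 1.10 FPKM in WT libraries. No Apoe_KO library reached the lowest WT library. Its log2 difference was -0.48 (SE 0.115, limma adjusted p = 0.0368), and since it passed the filter through WT libraries alone, that call is not independent of the filter. With the filter at 0.1 FPKM the adjusted p was 0.0441. The call was lost without Apoe_KO library 1 (0.0811), 3 (0.102) or 4 (0.0708), with no filter (0.0752), after median centring (0.069) and after quantile normalization (0.142). Hoxc5 dropped under the filter when WT library 2, 3, 4 or 5 was left out, and so it did without both lymphocyte-rich libraries.

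The remaining Hoxc genes of high level were lower by similar amounts without passing the test. Hoxc6 had 3.43, 3.18, 3.42 and 2.67 FPKM in Apoe_KO, against 4.96, 4.64, 4.85, 6.80 and 3.50 FPKM in WT, without overlap (log2 difference -0.49, limma adjusted p = 0.0636). Without WT library 5, the lowest of its group, Hoxc6 passed the test (adjusted p = 0.0301). Hoxc10, a gene of the lumbar region and hindlimb motor neurons, had 1.66, 4.01, 1.98 and 2.28 FPKM in Apoe_KO, against 3.52, 3.51, 3.98, 4.85 and 4.76 FPKM in WT. Apoe_KO library 2 lay among the WT libraries and the other 3 lay below them all. The log2 difference of Hoxc10 was -0.59 (SE 0.176, limma adjusted p = 0.0717), and it passed without Apoe_KO library 2 (adjusted p = 0.00865) and with library weights (0.0141). Hoxc9 had 1.22, 1.95, 1.53 and 0.717 FPKM in Apoe_KO, against 2.12, 1.67, 1.88, 2.80 and 1.66 FPKM in WT, and the groups overlapped (log2 difference -0.38, limma adjusted p = 0.200).

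Of 6 tested Hoxb and 2 tested Hoxd genes 0 passed the limma test, 0 had an unadjusted p under 0.05 and 0 were called by voom on the reads. Hoxb6 had 3.86, 2.52, 4.16 and 2.08 FPKM in Apoe_KO, against 3.56, 5.63, 5.05, 4.29 and 3.37 FPKM in WT, and Apoe_KO libraries 2 and 4 were below every WT library while 1 and 3 were within their range. Hoxb7 had 3.42, 3.04, 4.75 and 2.86 FPKM in Apoe_KO, against 4.26, 2.78, 4.54, 3.45 and 5.26 FPKM in WT. Hoxb4, known for expanding blood stem cells, had 2.89, 2.73, 1.92 and 2.06 FPKM in Apoe_KO, against 2.56, 2.91, 3.43, 2.59 and 2.45 FPKM in WT. All 3 genes overlapped between the genotypes. Hoxd8 was by far the highest Hoxd gene, with 2.89, 4.56, 3.25 and 3.69 FPKM in Apoe_KO, against 3.98, 3.99, 3.97, 5.79 and 4.78 FPKM in WT. Apoe_KO library 2 again lay among the WT libraries. The log2 differences of the tested Hoxb and Hoxd genes ran from -0.39 in Hoxb6 to -0.10 in Hoxb9, with limma adjusted p-values of 0.224 to 0.641.

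**Figure D3:**
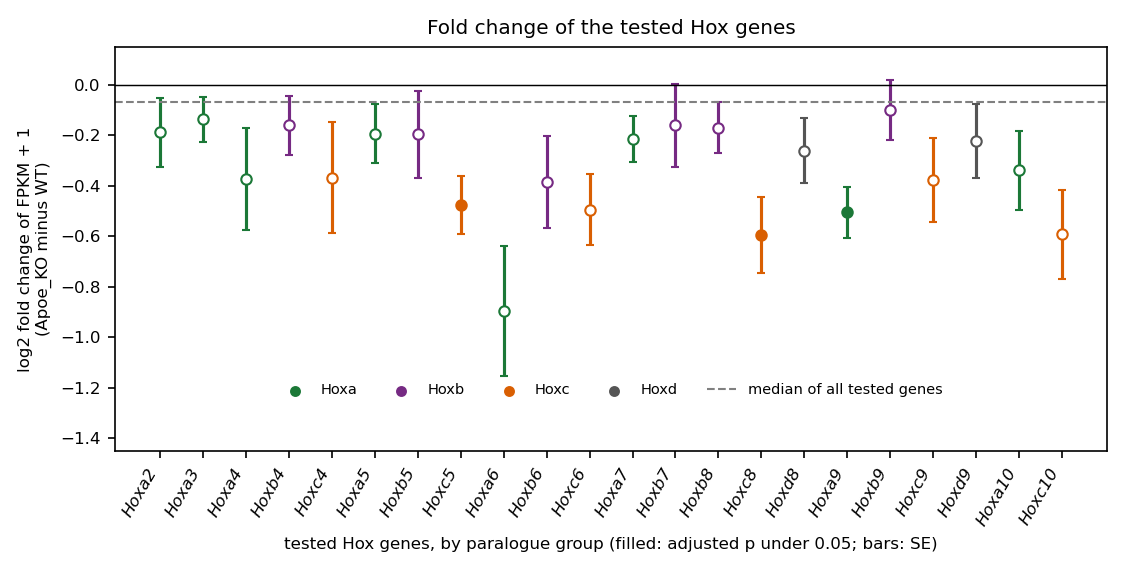
Log2 fold change of FPKM + 1, Apoe_KO minus WT, of the 22 tested Hox genes by paralogue group; bars are the SE, filled points have a limma adjusted p under 0.05, colours mark the clusters, and the dashed line is the median of all tested genes at -0.07. All 22 points lie below 0 and Hoxc5, Hoxc8 and Hoxa9 are filled.

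Of the measured members under the filter, Hoxc11 was among those with every Apoe_KO library below every WT library, and it was picked out after its values were seen. Among genes read at all this held for 4.3%. Hoxc11 had 7 reads in all in Apoe_KO and 38 in WT, with 0 in Apoe_KO libraries 2 and 3 (limma adjusted p = 0.179 at the lower filter). Hoxb2, also chosen after its values were seen, had 0.338, 0.108, 0.167 and 0.172 FPKM in Apoe_KO, against 0.740, 0.506, 0.807, 0.630 and 0.293 FPKM in WT. WT library 5 alone lay within the Apoe_KO range, and the adjusted p at the lower filter was 0.0772 in limma and 0.0832 in voom on the reads. Of its exonic bases 27.3% lie opposite Hoxb3os.

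As a sign of the segment taken, the balance along the axis was compared with the total. Groups 9 to 13 gave 13.7%, 22.1%, 16.9% and 24.6% of the Hox signal in Apoe_KO libraries, against 20.9%, 19.6%, 18.04%, 22.6% and 21.6% in WT libraries. Apoe_KO libraries 1 and 3 were below every WT library and library 4 was above them all, so that the Apoe_KO libraries straddled WT. The means were 19.3% ± 4.94 in Apoe_KO and 20.6% ± 1.79 in WT (SD, n = 4 and 5), and the difference of -1.24 percentage points was smaller than the spread within either genotype. Without Apoe_KO library 1 it turned to 0.628 points, and without both lymphocyte-rich libraries it was -3.24 points. The paralogue number weighted by level averaged 6.46 ± 0.212 in Apoe_KO and 6.55 ± 0.144 in WT, and its range of 6.22 to 6.72 in Apoe_KO enclosed the 6.35 to 6.71 of WT. Anterior groups 1 to 3 gave 9.25% to 10.4% of the signal in Apoe_KO and 7.96% to 10.3% in WT. No test is given for these scores.

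**Figure D4:**
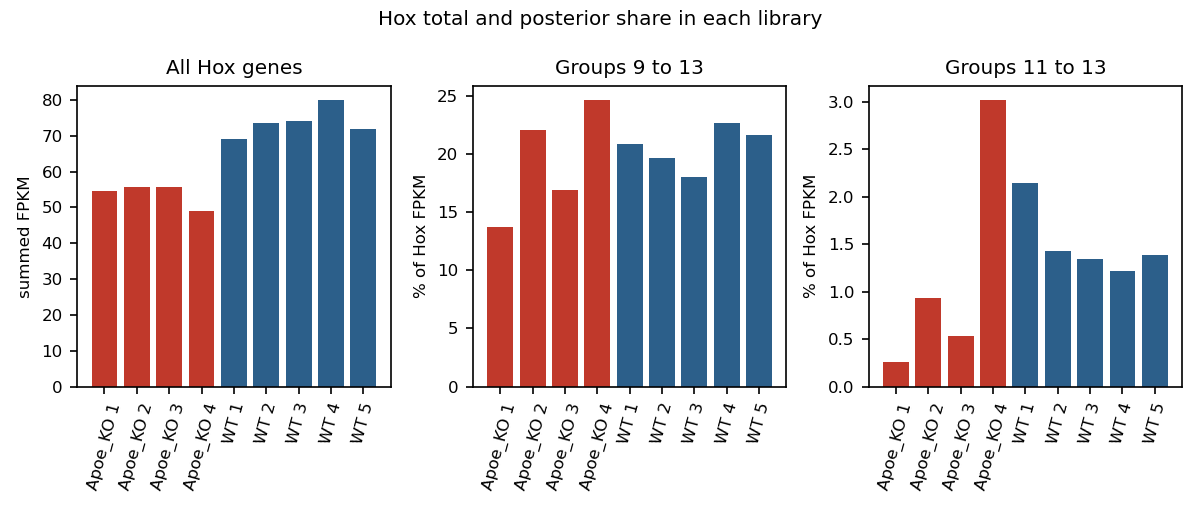
Per library, the summed FPKM of all Hox genes (left), the percent of it from paralogue groups 9 to 13 (middle) and from groups 11 to 13 (right), for 4 Apoe_KO libraries and 5 WT libraries; each bar is a single library. The totals of the Apoe_KO libraries, 48.9 to 55.8 FPKM, are below the WT totals of 68.9 to 79.9 FPKM, while their posterior shares lie on both sides of the WT shares.

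Apoe_KO library 4 stood apart in 3 weakly expressed posterior genes, Hoxa13, Hoxa11 and Hoxd10, which were chosen for description after their values were seen. Hoxa13, a gene of the limb ends, hindgut and umbilical arteries, had 0, 0.065, 0.064 and 0.441 FPKM in Apoe_KO, against 0.123, 0.381, 0.172, 0.127 and 0.043 FPKM in WT. Hoxa11, known from the forearm and the kidney, had 0.067, 0.353, 0.232 and 0.881 FPKM in Apoe_KO, against 0.819, 0.360, 0.580, 0.640 and 0.705 FPKM in WT, and 35.0% of its exonic bases lie opposite Hoxa11os. Hoxd10 had 0.056, 0.326, 0.175 and 0.840 FPKM in Apoe_KO, against 0.251, 0.421, 0.175, 0.317 and 0.266 FPKM in WT. Library 4 was the highest Apoe_KO library in all 3 genes, and it was the lowest in the more anterior Hoxa4 and Hoxa6, with 0.513 and 0.436 FPKM. Groups 11 to 13 made up 3.01% of its Hox signal, against 0.262%, 0.931% and 0.532% in the other Apoe_KO libraries and 1.22% to 2.14% in WT libraries. The counts behind this were small, with 37, 28 and 20 reads of Hoxa11, Hoxd10 and Hoxa13 in that library. In groups 9 and 10 library 4 lay within the range of the other Apoe_KO libraries. Its sums there were 4.955 and 5.605 FPKM, against 4.02 to 6.02 and 3.33 to 5.75 FPKM in the others. Within group 9 it was the lowest Apoe_KO library in Hoxc9 and the highest in Hoxa9 and Hoxb9.

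Markers of tissue next to the aorta moved between libraries, and the summed level overlapped between the genotypes in every marker list. Heart muscle markers, which mark the end at the aortic root, summed to 4.51, 50.7, 2.82 and 13.1 FPKM in Apoe_KO libraries, against 21.2, 28.3, 44.4, 2.08 and 12.8 FPKM in WT libraries, with wide overlap. Kidney markers, at the abdominal end, stayed at 0.683 FPKM or less in Apoe_KO and 0.719 FPKM or less in WT. White adipocyte markers summed to 403 to 766 FPKM in Apoe_KO and 648 to 920 FPKM in WT, and 2 of 5, Lep and Plin1, fell in the test. Schwann cell markers summed to 72.4 to 141 FPKM in Apoe_KO and 128 to 161 FPKM in WT, and 1 of 5 fell. Among the 7 aorta wall markers Eln alone fell. None of the 5 brown adipocyte markers was called, nor was any marker of the other lists. Over all tested genes 3.92% were called lower. Each marker with values in these lists was above 0 in at least one library. The part of adipose and nerve tissue in the Hox result was not tested.

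The Hox clusters also carry microRNA genes, miR-10 near the group 4 genes and miR-196 near the group 9 genes, which are known to repress Hox transcripts. Their mature sequences are shown because they are part of the same clusters and because 2 of the 3 called Hox genes hold a match to one of them. They are given as RefSeq lists them for GRCm38.p6, with the seed, bases 2 to 8, in capitals. The first pair shares a seed, as does the second. Mir10a and Mir196a-1 lie on chromosome 11, Mir10b on chromosome 2, Mir196a-2 on chromosome 15, and Mir196b on chromosome 6 at 52230129 to 52230150, inside the span of Hoxa9.
miR-10a-5p: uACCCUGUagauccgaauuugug
miR-10b-5p: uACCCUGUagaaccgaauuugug
miR-196a-5p: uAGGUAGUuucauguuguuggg
miR-196b-5p: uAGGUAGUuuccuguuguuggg

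The 7 bases that pair with each seed, ACTACCT for miR-196 and ACAGGGT for miR-10, were searched on the transcript strand in 3′ untranslated regions. In the first 500 bases, 8 of 34 Hox genes with a region that long held a match for miR-196 (23.5%), as did 283 of all 14294 such genes (1.98%). A match for miR-10 was found there in 1 of the 34, Hoxa3 (2.9%), beside 4.79% of all genes. Among the 8 were Hoxa4, Hoxa5, Hoxb6, Hoxa7, Hoxb7, Hoxc8 and Hoxa9. The sites of Hoxa9, of Hoxc8 (at 2 places) and of Hoxa5 are shown from the GENCODE transcripts (the second Hoxc8 site lies beyond the first 500 bases) as examples of a called gene and of the gene of highest level, with the match in capitals.
Hoxa9: gcaaaaggaaagaaaACTACCTttt
Hoxc8 first site: acactcacaactctaACTACCTgtc
Hoxc8 second site: ataaatctttaacatACTACCTaaa
Hoxa5: gatatttttattcaaACTACCTata

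Of the 8 genes with a match, Hoxa9 and Hoxc8 were called lower. Hoxa7, which holds 4 matches in its whole 3′ region, had a log2 difference of -0.22, and Hoxa5 one of -0.19, so matched genes covered both the called and the weakly differing members. Hoxc5, the third called gene, held none. Mature microRNAs were not measured. Of the hairpin genes, Mir196a-1 averaged 2.31 FPKM in Apoe_KO and 1.78 FPKM in WT (limma adjusted p = 0.761), and Mir10a averaged 1.44 FPKM in Apoe_KO and 2.75 FPKM in WT (adjusted p = 0.283). Features this short are counted uncertainly, and Mir10b, Mir196a-2 and Mir196b were not analysed here. Of 13 noncoding Hox cluster genes with values 5 were tested and 0 were called by limma or by voom on the reads, with 0 at an unadjusted p under 0.05. Hoxaas2, of the Hoxa cluster, averaged 0.895 FPKM in Apoe_KO and 1.17 FPKM in WT (adjusted p = 0.352).

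Hox proteins bind DNA with partners of the TALE homeodomain class, the Pbx, Meis and Pknox factors. Of 8 tested genes limma called 0 in either direction, and the median log2 difference was -0.06. At an unadjusted p under 0.05, 1 was higher and 3 were lower, and voom on the reads called 1 higher, Pbx3 (adjusted p = 0.0476). The smallest p-values were those of Pbx2, with 8.40 ± 0.949 FPKM in Apoe_KO and 10.2 ± 0.828 FPKM in WT (SD, n = 4 and 5, limma adjusted p = 0.102), and of Pbx3, with 1.91 ± 0.214 FPKM in Apoe_KO and 1.44 ± 0.179 FPKM in WT (adjusted p = 0.124).

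Polycomb complexes keep Hox genes silent where they should be off, and trithorax proteins keep them on. Of 20 tested genes of both classes 3 fell in Apoe_KO and 0 rose, beside 3.92% and 3.43% of all tested genes. The median log2 difference of the 20 was -0.05. At an unadjusted p under 0.05, 2 were higher, and voom on the reads called that pair, Phc1 and Phc2, subunits of Polycomb repressive complex 1 (adjusted p = 0.0339 and 0.0152). Cbx8, a chromobox subunit of that complex, had 0.558, 0.689, 0.722 and 0.741 FPKM in Apoe_KO, against 1.78, 1.78, 1.81, 1.37 and 1.08 FPKM in WT without overlap (log2 difference -0.60, SE 0.116, limma adjusted p = 0.0159). Like Hoxc5, Cbx8 passed the filter through WT libraries alone, and its adjusted p was 0.0578 without both lymphocyte-rich libraries and 0.0691 after quantile normalization. Jarid2, an accessory subunit of Polycomb repressive complex 2, averaged 3.29 FPKM in Apoe_KO and 4.14 FPKM in WT (log2 difference -0.26, limma adjusted p = 0.0489), and its adjusted p was 0.0761 to 0.113 when any single library other than Apoe_KO library 4 was left out, and 0.0696 without both lymphocyte-rich libraries.

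Retinoic acid switches on anterior Hox genes in the embryo through its nuclear receptors. Of 12 tested genes of this pathway 1 fell and 0 rose, beside 3.92% and 3.43% of all tested genes. The median log2 difference of the 12 was -0.07. The one called was Rxrg, a retinoid X receptor, with 3.12, 4.62, 2.64 and 3.06 FPKM in Apoe_KO, against 5.04, 4.48, 6.03, 7.26 and 5.01 FPKM in WT (log2 difference -0.60, SE 0.151, limma adjusted p = 0.0435). Apoe_KO library 2 overlapped with WT library 2. The adjusted p was 0.0687 to 0.126 when any single library other than Apoe_KO library 2 or WT library 2 was left out, 0.0678 in voom on the reads, and 0.0894 without both lymphocyte-rich libraries. Of the Caudal factors and Gdf11, which switch on posterior Hox genes in the embryo, only Gdf11 was high enough to test, with 1.58 FPKM in Apoe_KO and 2.11 FPKM in WT (adjusted p = 0.341). Cdx2 and T were listed at 0 or nearly so in both genotypes.

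Other transcription factors of regional identity gave 1 call in each direction among 18 tested genes, with a median log2 difference of -0.18. Nr2f2 (COUP-TFII), which specifies veins and atria, had 7.76, 6.28, 7.10 and 5.91 FPKM in Apoe_KO, against 11.95, 9.64, 9.61, 12.3 and 11.2 FPKM in WT. All Apoe_KO libraries were below all WT libraries, and Nr2f2 fell by 0.62 on the log2 scale (SE 0.0989, limma adjusted p = 0.00733). The call was lost with same-numbered libraries as a block in the model (limma adjusted p = 0.0735) and held in the other alternatives. Gata6, a factor of smooth muscle and the outflow tract, had 15.7, 13.8, 16.9 and 14.4 FPKM in Apoe_KO, against 10.8, 11.3, 13.04, 11.9 and 12.7 FPKM in WT. It rose by 0.32 on the log2 scale (SE 0.0779, adjusted p = 0.0371), again without overlap, but its adjusted p was 0.0532 to 0.108 when any single library other than Apoe_KO library 2 or WT library 3 was left out, and 0.0949 without both lymphocyte-rich libraries. Across the pathway lists 6 of 64 tested genes were called (9.38%), near the 7.35% of all tested genes, and this count was 3 without Apoe_KO library 3, WT library 1, 4 or 5, or at the lower filter.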

How the data were processed

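The labels' molecule field gives polyA RNA, while per the labels' protocols ribosomal RNA was depleted. Per the submitters' processing notes the build was GRCm38 and limma was used. Aligner, counter, annotation and strandedness were not given in the sources used here. A single deposited table without a unit was used. Its values were read as FPKM computed by the authors: multiplied by exon length (GENCODE mouse release 21) and depth, they came within 0.1 read of whole reads in 97.56% to 97.87% of cases up to 50 reads and 95.22% to 95.46% of all values, beside 20% by chance. That annotation held 33201 of the 33293 identifiers, and gave symbols, positions and overlaps.

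Genes reaching 1 FPKM in 4 or more of 9 libraries entered limma 3.58.1 (R 4.3.3) as log2(FPKM + 1), with genotype alone in the model and empirical Bayes moderation (trend, robust), adjusted by Benjamini and Hochberg over all tested genes with a threshold of 0.05. The procedure was tested on simulated data. Scores over members are sums or FPKM-weighted means, without a test. Alternatives were other pseudocounts, filters, scalings and weights, voom with TMM on the recovered reads, a replicate block and leaving out libraries. Named in the text with values per library are called Hox genes, the 10 of highest mean and the highest gene of each paralogue group over the filter by mean of all libraries. Of each pathway list the called genes are named, or else the 2 of smallest p. Phc1, Phc2, Mir196a-1, Cdx2, T and the Hox genes so marked were named after their values were seen. Members and lists were chosen with earlier results of these data known. Umod was not analysed here. Some genes that the rule or the lists hold are not reported here, but stay in every count and sum.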

Additional observations from a re-analysis of the deposited data

Results flagged for a closer look

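Of 71 groups of 4 or 5 libraries checked for a library far from the rest of its group, 4 had one, where chance gives about 1 in 20, or 3.5. In Apoe_KO library 4 the summed Hox level was 48.9 FPKM, against 54.6 to 55.8 FPKM in the other Apoe_KO libraries. In the same library Hoxa13 stood at 0.441 FPKM, against 0 to 0.065 FPKM in the other Apoe_KO libraries. Hoxd11 was at 0.0767 FPKM in Apoe_KO library 2, from 6 reads, and at 0 in the other Apoe_KO libraries. Hoxd4 was at 0.101 FPKM in WT library 2, from 5 reads, against 0 to 0.0218 FPKM in the other WT libraries. Apoe_KO library 4 and WT library 2 are also the libraries rich in lymphocyte transcripts, and the part of those cells in these values was not tested.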

How the results depend on the processing

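The whole table gave 459 higher calls and 524 lower calls in Apoe_KO. These counts were 247 and 198 with no filter, 702 and 1055 with library weights, 203 and 174 without both lymphocyte-rich libraries (chosen after seeing the data), 731 and 381 with voom on the recovered reads, and 205 to 576 and 178 to 683 when single libraries were left out. Median centring gave 630 higher and 269 lower and quantile normalization 485 and 240, so the balance of directions rests on the scaling, which centres a median log2 difference of -0.07. Hox calls numbered 3, against 1 with no filter, after median centring or without both lymphocyte-rich libraries, 0 after quantile normalization, and 0 to 3 when single libraries were left out. Calls in the pathway lists numbered 6, against 3 at the 0.1 FPKM filter and 3 to 6 without single libraries. Of the single Hox values under an alternative, 384 kept direction and side of the threshold, 25 lost a call, 3 gained one, and 1 reversed, Hoxb9 with 0.0209 after quantile normalization (adjusted p = 0.946). The cause was not tested. The summed Hox level stayed 18.4 to 21.2 FPKM lower in Apoe_KO without single libraries, and the share of groups 9 to 13 ran from -3.0 to 0.628 percentage points. Depth limits the genes of groups 11 to 13 and Hoxd10, whose levels rest on few reads.

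Same-numbered libraries had correlations of deviations of 0.259, -0.267, -0.129 and -0.218. These were set against no reference, so they cannot decide whether the numbers mark a shared batch or are only names. With the replicate block 121 genes were called higher, 62 lower and 0 Hox genes, with adjusted p-values of 0.121 for Hoxa9, 0.135 for Hoxc5 and 0.115 for Hoxc8.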
